A study of Equisetum hyemale and Pteris vittata and Marchantia polymorpha with 22 samples.

Results

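The enzymes that oxidize pyruvate and turn the citric acid cycle were followed in 5 land plants under low oxygen. The features described here are 250 of the 180885 in the 5 tables. They were chosen by name and not by expression. A feature was taken if its *Arabidopsis thaliana* best hit belongs to 29 genes described as pyruvate dehydrogenase, citrate synthase, aconitase, isocitrate dehydrogenase, 2-oxoglutarate dehydrogenase, succinyl-CoA ligase, fumarase or malate dehydrogenase, and 1 gene whose description matched, AT4G17260, was left out. There were 25 such features among 13572 in the liverwort *M. polymorpha*, 44 of 21442 in the moss *P. patens* and 30 of 16892 in the lycophyte *S. moellendorffii*. The horsetail *E. hyemale* had 60 of 55254 and the fern *P. vittata* had 91 of 73725, and 14 of the 29 best hits had a feature in all 5 tables. A mean over 5 CPM, where CPM are reads scaled to the size of the library, was reached by 24, 34, 26, 55 and 62 of them, in the same order of species. The names fit the enzymes searched for with 1 exception. Through the words aconitase and malate dehydrogenase, 18 features of 2 enzymes of leucine synthesis were taken as well, and these are described apart. Many other members match forms outside the mitochondrion, which are not part of the cycle itself. A best hit placed in the mitochondrion alone was held by 13, 20, 15, 24 and 27 members, in the same order of species.

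Shoots, thalli or gametophores were kept in the dark for 8 h, either under hypoxia at 1% O2 or in air at 21% O2, so darkness was common to all groups and was not itself compared. No mutation or transgene is named for these plants, of which *M. polymorpha* was the accession Cam-2, and each library pooled several thalli, plantlets or young shoots. The liverwort and moss tissue is gametophyte and that of the others sporophyte. *E. hyemale* had 3 hypoxia and 3 air libraries, and every other species had 2 of each. *E. hyemale* grew in soil and its RNA was extracted with another kit, while *M. polymorpha*, *S. moellendorffii* and *P. vittata* grew on agar medium with sucrose and *P. patens* on Knop medium, so differences between species cannot be told apart from those of growth and extraction. The mRNA was sequenced at an estimated depth of 16.3 to 28.9 M reads per library, and the members took between 0.304 and 0.606% of the CPM of a library. All tissue is labelled shoot, and transcripts of the leaf protein Rubisco activase summed to 885 CPM or more in every library, while root hair and rhizoid regulators of the RSL type summed to 333 CPM or less. In *M. polymorpha* these RSL transcripts were at 33.45 to 33.53 CPM under hypoxia and 53.05 to 53.29 CPM in air. They were also lower without overlap in *S. moellendorffii*, at 17.08 to 19.98 CPM under hypoxia and 23.5 to 24.43 CPM in air, and higher without overlap in *E. hyemale*, at 0.49 to 0.66 CPM under hypoxia and 0.10 to 0.38 CPM in air. The part of this in the values below was not tested. No feature was matched to LHCB1 in *M. polymorpha*, *P. patens* and *S. moellendorffii*.

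As background, the pyruvate dehydrogenase (PDH) complex joins glycolysis to respiration by turning pyruvate into acetyl-CoA. It is built of a decarboxylase (E1), an acetyltransferase (E2) and a dihydrolipoamide dehydrogenase (E3), and a kinase switches its mitochondrial form off by phosphorylating E1. The cycle then condenses acetyl-CoA with oxaloacetate and passes through citrate, isocitrate, 2-oxoglutarate, succinyl-CoA, succinate, fumarate and malate. Its dehydrogenases hand electrons to the respiratory chain, whose last acceptor is oxygen. Plants also keep relatives of several of these enzymes outside the mitochondrion. Citrate synthase and malate dehydrogenase of peroxisomes serve fatty acid breakdown and photorespiration, plastid PDH feeds fatty acid synthesis, and cytosolic and plastid malate dehydrogenases move reducing power between compartments. Compartments given below are those of the *A. thaliana* proteins, and roles were not tested in these 5 species.

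No member passed the thresholds of a differentially expressed gene (DEG) in any species by the test used here, limma on log2(CPM + 1). A DEG had a false discovery rate (FDR) of 0.01 or less by limma with Benjamini-Hochberg adjustment over all features of a table, and a log2 fold change (log2FC) above 1 or below -1. In *M. polymorpha*, 0 of 25 members were upregulated and 0 downregulated, against 1.47% and 1.35% of all features. In *E. hyemale*, 0 of 60 were called in either direction, where the background was 0.673% up and 0.0452% down. In *P. patens*, 0 of 44 were called beside a background of 0.07% and 0.014%. No feature at all was called in *P. vittata* or *S. moellendorffii*, where the background was 0.0% in each direction, so the count of 0 members says little there. The smallest FDR of a member by limma was 0.275 in *P. vittata*, 0.159 in *E. hyemale*, 0.125 in *S. moellendorffii*, 0.0643 in *P. patens* and 0.00346 in *M. polymorpha*. At an FDR of 0.01 or less with any fold change stood 2 members, both of *M. polymorpha* and both higher, where 6.51% of its features passed and 3.49% were higher. No member passed that FDR in *E. hyemale*, with backgrounds of 0.782% in all and 0.717% higher, or in *P. patens*, with 0.0839% in all.

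All log2FC values are of log2(CPM + 1), hypoxia over air, which understates changes of low features. The 95% interval of the log2FC lay wholly between -1 and 1 for 60 of 91 in *P. vittata*, 59 of 60 in *E. hyemale*, 29 of 30 in *S. moellendorffii*, 44 of 44 in *P. patens* and 23 of 25 in *M. polymorpha*. That is 86.0% of all members, beside 79.0% of all features, and by species 65.9, 98.3, 96.7, 100 and 92.0% of members beside 63.4, 85.9, 94.1, 96.5 and 89.1% of features. Within 0.5 log2 units of no change were 79.1, 96.7, 90.0, 97.7 and 84.0% of the members, in the same order, where 80.5, 88.8, 94.1, 96.0 and 83.7% of all features were. Of the 250 members, 4 (1.6%, beside 3.03% of all features) were more than 1 log2 unit from 0, 1 in *S. moellendorffii* and 3 in *P. vittata*, and 3 of these 4 averaged 5 CPM or less. The median log2FC of the members was 0.07 in *P. vittata*, -0.12 in *E. hyemale*, -0.03 in *S. moellendorffii*, -0.07 in *P. patens* and 0.15 in *M. polymorpha*, beside medians of all features that were 0.00 in each table.

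**Figure D1:**
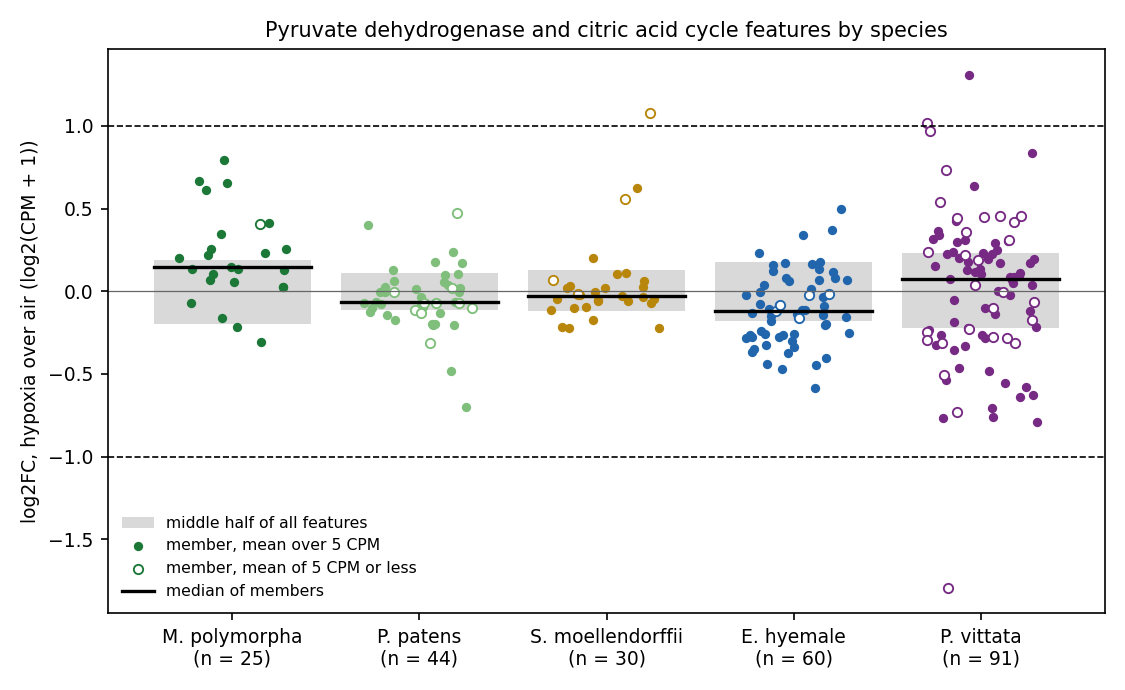
Log2FC of every member, hypoxia over air, by species. Filled points averaged over 5 CPM, open points did not, black bars are the medians of the members, grey boxes span the middle 50% of all features of the table, and dashed lines mark 1 and -1. The *M. polymorpha* median of 0.15 stands above 0 and the *E. hyemale* median of -0.12 below it, and 4 members lie beyond the dashed lines.

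The direction of these differences was not shared by the species. In *M. polymorpha*, 21 members were positive and 4 negative, whereas *E. hyemale* had 18 positive and 42 negative, *P. patens* 15 and 29, *S. moellendorffii* 12 and 18, and *P. vittata* 51 and 40. At an unadjusted p under 0.05 by limma, 7 *M. polymorpha* members were higher and 1 lower, against 15.4 and 15.8% of all features. The counts were 3 higher and 2 lower in *P. patens* (backgrounds 5.45 and 5.46%), 2 and 1 in *S. moellendorffii* (10.4 and 5.42%), 3 and 8 in *E. hyemale* (6.71 and 5.99%), and 1 and 7 in *P. vittata* (6.03 and 4.23%). In *M. polymorpha*, both hypoxia libraries lay above both air libraries for 19 of 25 members and below them for 2, where 30.1 and 30.4% of all features did so. The corresponding counts were 8 and 12 in *P. patens* (20.5 and 20.9%), 4 and 6 in *S. moellendorffii* (26.0 and 23.5%), 3 and 11 in *E. hyemale* (9.66 and 9.38%), and 23 and 22 in *P. vittata* (21.6 and 20.9%). With 2 libraries against 2, an exact two-sided permutation test cannot give a p below 0.333, and with 3 against 3 none below 0.1. Leaving out hypoxia replicate 4 of *E. hyemale* turned the direction of the summed CPM in 4 of 12 enzyme steps, and so did leaving out air replicate 3 of *S. moellendorffii*. Air replicate 2 of *P. patens* and air replicate 3 of *P. vittata* each turned 2 of 12, and any other library 1 or none. Whole tissue was sequenced, so fewer cells of a type and less RNA per cell cannot be told apart.

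At the entry to the cycle, E1 of the mitochondrial PDH complex decarboxylates pyruvate. Its alpha subunit had summed ratios between 0.976 and 1.13, and its beta subunit (AT5G50850) is not among the members. A feature with the alpha subunit AT1G59900 as best hit was Mapoly0083s0076.1 in *M. polymorpha*, with 355 and 336 CPM under hypoxia, against 319 and 322 CPM in air. Its hypoxia libraries lay just above its air libraries, and the log2FC was 0.11 with a 95% interval of -0.13 to 0.35. Summed over the AT1G59900 features, the ratio of the hypoxia mean to the air mean was 1.13 in *P. vittata*, 1.07 in *E. hyemale*, 1.02 in *S. moellendorffii*, 0.976 in *P. patens* and 1.07 in *M. polymorpha*. Single libraries turned the direction in 3 species, to 0.941 in *E. hyemale* without hypoxia replicate 4, 0.975 in *S. moellendorffii* without the unnumbered air library and 1.04 in *P. patens* without air replicate 2. In *P. vittata*, all 6 AT1G59900 transcripts were positive, with log2FC values of 0.07 to 0.36 and none past the test.

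The subunits of plastid E1, which serves fatty acid synthesis, differed in direction in *M. polymorpha*. The alpha subunit Mapoly0005s0206.1 (AT1G01090) had 187 and 178 CPM under hypoxia, against 215 and 236 CPM in air. It was the most negative *M. polymorpha* member, with a log2FC of -0.31, a 95% interval of -0.54 to -0.07 and an FDR of 0.0793 by limma, and it did not pass the test. The beta subunit Mapoly0052s0126.1 (AT2G34590), which is not a member and was named after its values were seen, had 103 and 124 CPM under hypoxia, against 102.1 and 101.8 CPM in air, with a log2FC of 0.14. In *P. vittata* the plastid alpha subunit TRINITY_DN31439_c0_g1_i2 was slightly higher instead, at 197 and 195 CPM under hypoxia, against 179 and 164 CPM in air. In *P. patens*, *S. moellendorffii* and *E. hyemale* every AT1G01090 feature overlapped between hypoxia and air. The beta subunit AT1G30120 was the best hit of *E. hyemale* features alone, 2 in number, with log2FC values of -0.04 and -0.11.

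PDH kinase, the enzyme that inactivates mitochondrial PDH, had values on both sides of air among the species. *M. polymorpha* has 1 such feature, Mapoly0183s0013.1, with 181 and 168 CPM under hypoxia, against 138 and 159 CPM in air. *P. patens* Pp3c9_2880 had 55.1 and 50.0 CPM under hypoxia, against 45.5 and 43.4 CPM in air. Hypoxia thus lay above air in the liverwort and the moss, with log2FC values of 0.23 and 0.24 that did not pass the test at FDRs of 0.194 and 0.447 by limma. In *P. vittata*, 1 of 2 kinase genes was lower. Its transcript TRINITY_DN33093_c0_g1_i1 had 16.8 and 21.2 CPM under hypoxia, against 32.5 and 30.1 CPM in air, a log2FC of -0.70 with a 95% interval of -1.16 to -0.25. With the 8 transcripts of its Trinity gene summed, TRINITY_DN33093_c0_g1 had 29.1 and 28.9 CPM under hypoxia, against 46.0 and 43.3 CPM in air. Only 2 of these 8 transcripts are members with PDH kinase as best hit, so this sum is not of kinase transcripts alone. The gene's log2FC was -0.61, and its FDR of 0.0704 by limma was the smallest of the 35 Trinity genes that hold a member. The other gene, TRINITY_DN29196_c0_g1, had 18.9 and 18.1 CPM under hypoxia, against 20.4 and 18.2 CPM in air, and overlapped at a log2FC of -0.05.

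In *E. hyemale* the kinase features went in opposite directions. Ehym_DN107335_c1_g1 had 40.8, 28.8 and 30.6 CPM under hypoxia, against 22.6, 24.6 and 22.01 CPM in air, so that every hypoxia library was above every air library. Its log2FC of 0.50, with a 95% interval of 0.15 to 0.85, was the most positive of the *E. hyemale* members. Ehym_DN107335_c1_g2, from the same assembly cluster, had 4.95, 10.4 and 14.6 CPM under hypoxia, against 14.4, 15.3 and 13.4 CPM in air, and its log2FC was -0.59. FDRs were 0.194 and 0.464 by limma. Because these features share a cluster, reads may be split between them, and the 3 kinase features of the species, with a sum of 49.2 ± 3.3 CPM under hypoxia and 45.1 ± 1.5 CPM in air (SD, n = 3 each), overlapped between the conditions. In *S. moellendorffii*, feature 164498 had 76.2 and 56.9 CPM under hypoxia, against 73.3 and 80.7 CPM in air, and the libraries overlapped.

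Citrate synthase, which forms citrate from acetyl-CoA and oxaloacetate, gave the clearest difference inside the cycle, in *M. polymorpha*. The mitochondrial enzyme Mapoly0063s0010.1 (AT2G44350) had 405 and 403 CPM under hypoxia, against 248.5 and 264 CPM in air. Both hypoxia libraries were well above both air libraries, with a log2FC of 0.66, a 95% interval of 0.42 to 0.89 and an FDR of 0.00515 by limma. It thus passed the FDR without reaching the fold change of a DEG. The 3 other AT2G44350 features were low, at means of 1.11 to 7.43 CPM, and also higher, with log2FC values of 0.41 to 0.67. Summed, the 4 features came to 423 ± 0.7 CPM under hypoxia and 267.5 ± 12.2 CPM in air (SD, n = 2 each), a ratio of 1.58. The peroxisomal type (AT2G42790) showed no such ratio in *M. polymorpha*, where the sums of its 2 features overlapped at 108.4 ± 5.21 CPM under hypoxia and 102.9 ± 4.02 CPM in air (SD, n = 2 each).

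Mitochondrial citrate synthase was close to level in the other species. Feature 146083 of *S. moellendorffii* had 238 and 233 CPM under hypoxia, against 233 and 227 CPM in air, with a log2FC of 0.03 and a 95% interval of -0.14 to 0.20. The summed AT2G44350 ratios were 1.05 in *P. vittata*, 0.934 in *E. hyemale*, 1.02 in *S. moellendorffii* and 1.01 in *P. patens*. In *P. vittata* it was the peroxisomal type that was lower. Its Trinity gene TRINITY_DN23337_c0_g1, named after its values were seen, had 59.0 and 62.4 CPM under hypoxia, against 80.3 and 95.7 CPM in air. The log2FC was -0.52, with a 95% interval of -0.82 to -0.22 and an FDR of 0.132 by limma. Its transcripts matched AT2G42790 only weakly, with E-values of 3e-19 to 2e-16. Of the 6 citrate synthase genes of *P. vittata* that hold a member, 4 were lower and 2 higher. Single *P. vittata* transcripts spread from -0.77 to 0.97 within this step. The 11 transcripts of TRINITY_DN30549_c3_g1 had log2FC values of both signs, while that gene as a whole had 171 and 180 CPM under hypoxia, against 182 and 202 CPM in air.

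Aconitase, which isomerizes citrate, did not differ beyond the spread of the libraries in *M. polymorpha* and *P. patens*. Mapoly0013s0086.1 had 633 and 563 CPM under hypoxia, against 534 and 607 CPM in air, and its log2FC was 0.07 with a 95% interval of -0.23 to 0.36. In *E. hyemale* all 6 aconitase features were negative, with log2FC values of -0.40 to -0.02, and their sum averaged 602 ± 82.6 CPM under hypoxia and 677 ± 16.8 CPM in air (SD, n = 3 each), with overlap. One of them, Ehym_DN109134_c1_g1, had 318.5, 223 and 212 CPM under hypoxia, against 248, 236 and 269 CPM in air. In *S. moellendorffii* both aconitases were a little lower, 443331 with 487 and 469 CPM under hypoxia, against 491.5 and 503 CPM in air. In *P. vittata* the air libraries themselves were far apart, since the summed aconitases gave 550 ± 24.4 CPM under hypoxia and 631 ± 164 CPM in air (SD, n = 2 each), and the ratio of 0.872 was 1.07 without air replicate 3.

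The isocitrate dehydrogenases come as a mitochondrial NAD-dependent enzyme of the cycle and as NADP-dependent enzymes that make NADPH. The NADP-dependent Mapoly0112s0021.1 (AT5G14590, mitochondrion and plastid) had 1264 and 1262 CPM under hypoxia, against 929 and 966 CPM in air. Hypoxia lay above air by a log2FC of 0.41, with a 95% interval of 0.12 to 0.71 and an FDR of 0.0646 by limma. The same best hit was higher by 0.18 in *P. patens* Pp3c20_22810, with 127 and 121 CPM under hypoxia, against 104.5 and 114 CPM in air. In *E. hyemale*, Ehym_DN99721_c0_g1 had 29.4, 28.8 and 36.9 CPM under hypoxia, against 24.3, 24.0 and 24.2 CPM in air. Its log2FC was 0.37 at an FDR of 0.302 by limma. The cytosolic form (AT1G65930) was also higher in *E. hyemale*, where Ehym_DN108648_c6_g9 had 159, 149 and 210 CPM under hypoxia, against 141, 132 and 131 CPM in air, whereas *P. patens* Pp3c10_2540 had 423 and 388 CPM under hypoxia, against 451 and 434 CPM in air. None of these passed the test.

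Summed over the NADP-dependent features, the ratios were 1.08 in *P. vittata*, 1.19 in *E. hyemale*, 1.06 in *S. moellendorffii*, 0.959 in *P. patens* and 1.33 in *M. polymorpha*. The *S. moellendorffii* value was 0.994 without the unnumbered air library. For the NAD-dependent enzymes the summed ratios were 1.18 in *P. vittata*, 1.04 in *E. hyemale*, 0.912 in *S. moellendorffii*, 0.972 in *P. patens* and 1.03 in *M. polymorpha*. The *E. hyemale* value was 0.982 without hypoxia replicate 4. In *S. moellendorffii* the regulatory subunit 231507 (AT4G35260) had 147 and 149.5 CPM under hypoxia, against 165 and 180.5 CPM in air, a log2FC of -0.22 with a 95% interval of -0.41 to -0.03. The catalytic subunit of the same species, 233612, had 94.0 and 93.7 CPM under hypoxia, against 94.7 and 90.45 CPM in air, and so overlapped. In *P. vittata* the catalytic subunit TRINITY_DN30448_c0_g1_i1 had 92.9 and 94.0 CPM under hypoxia, against 78.9 and 73.8 CPM in air, with an FDR of 0.52 by limma.

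E1 of the 2-oxoglutarate dehydrogenase complex, which makes succinyl-CoA, was the step that stood out in *S. moellendorffii*. Feature 93779 (AT3G55410) had 500.4 and 474 CPM under hypoxia, against 348 and 287 CPM in air, where the lower air value is the library with no matching replicate number. Hypoxia was above air by a log2FC of 0.62, with a 95% interval of 0.34 to 0.90 and an FDR of 0.125 by limma, which did not pass the test. The log2FC was 0.48 at an FDR of 0.169 without the unnumbered air library, 0.76 at an FDR of 0.0176 without air replicate 3, and 0.58 at an FDR of 0.765 without hypoxia replicate 1, all by limma. A low feature of the same step, 138697, had 6.58 and 4.87 CPM under hypoxia, against 5.84 CPM in air replicate 3 and 0.454 CPM in the unnumbered air library. Its log2FC of 1.08 thus rested on 1 library, and the groups overlapped. In the other species the summed E1 ratios were 1.10 in *M. polymorpha*, 1.05 in *P. patens*, 0.941 in *E. hyemale* and 1.06 in *P. vittata*. They were 0.918 in *P. patens* without air replicate 3, 1.01 in *E. hyemale* without hypoxia replicate 4 and 0.993 in *P. vittata* without air replicate 1.

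Succinyl-CoA ligase, the step that makes ATP or GTP, and fumarase, which hydrates fumarate to malate, showed small ratios with no common direction. The fumarase best hit was the mitochondrial AT2G47510 in *E. hyemale* and the cytosolic AT5G50950 in the other species. Fumarase is thus not compared as the same form across all species. For the alpha subunit of the ligase the summed ratios were 1.04 in *P. vittata*, 1.05 in *E. hyemale*, 0.887 in *S. moellendorffii*, 0.862 in *P. patens* and 1.09 in *M. polymorpha*. The *E. hyemale* value was 0.903 without hypoxia replicate 4, and that of *P. vittata* 0.932 without air replicate 3. *S. moellendorffii* 405593 had 56.3 and 61.5 CPM under hypoxia, against 68.3 and 64.5 CPM in air. *M. polymorpha* fumarase Mapoly0045s0064.1 had 71.3 and 62.9 CPM under hypoxia, against 57.0 and 58.0 CPM in air, and *E. hyemale* fumarase summed to 71.2 ± 15.3 CPM under hypoxia and 83.5 ± 1.6 CPM in air (SD, n = 3 each), with overlap. *P. vittata* fumarase TRINITY_DN32031_c0_g1_i3 had 22.7 and 24.1 CPM under hypoxia, against 18.5 and 17.3 CPM in air. Their FDRs were 0.366, 0.197 and 0.509 by limma for the single features named.

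**Figure D2:**
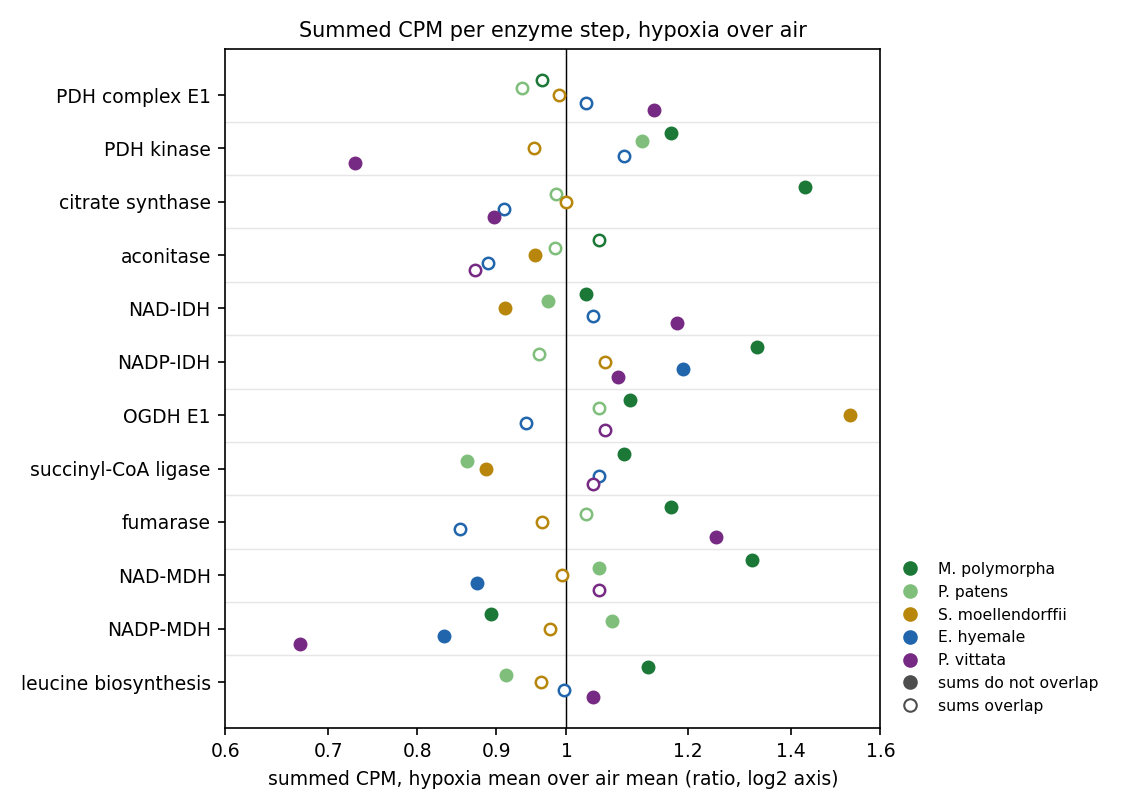
Summed CPM of each enzyme step, as the mean of the hypoxia libraries divided by the mean of the air libraries, on a log2 axis. Each point is 1 species, and it is filled where the hypoxia sums and the air sums do not overlap. The points furthest from 1 are OGDH E1 (E1 of 2-oxoglutarate dehydrogenase) in *S. moellendorffii* at 1.53, citrate synthase in *M. polymorpha* at 1.43, and NADP-MDH at 0.671 and PDH kinase at 0.729 in *P. vittata*.

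Malate dehydrogenase (NAD-MDH) closes the cycle in the mitochondrion and, in the cytosol, regenerates NAD by reducing oxaloacetate. The cytosolic enzyme gave the largest log2FC of any *M. polymorpha* member. Mapoly0206s0010.1 (AT1G04410) had 664 and 703 CPM under hypoxia, against 402.5 and 385 CPM in air, and the 2 groups were far apart. The log2FC was 0.79, with a 95% interval of 0.53 to 1.05 and an FDR of 0.00346 by limma. Leaving out 1 library at a time moved its FDR between 0.00234 and 0.0306, and that of the citrate synthase between 0.00623 and 0.042.

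The cytosolic NAD-MDH was also higher in *P. patens* and *P. vittata*. Pp3c21_10840 had 439 and 402.5 CPM under hypoxia, against 310.0 and 326 CPM in air, a log2FC of 0.40 with a 95% interval of 0.14 to 0.66 and an FDR of 0.255 by limma. In *P. vittata* the Trinity gene TRINITY_DN30044_c0_g3 had 301 and 304 CPM under hypoxia, against 253 and 248 CPM in air, a log2FC of 0.27 at an FDR of 0.403 by limma. Its lesser transcript TRINITY_DN30044_c0_g3_i2 had the log2FC of 1.31, the highest of all members, but read 35.2 and 0.389 CPM under hypoxia, against 0.148 and 6.14 CPM in air, so that the replicates disagreed. In *E. hyemale*, cytosolic features summed to 212 ± 20.2 CPM under hypoxia and 197 ± 15.1 CPM in air (SD, n = 3 each), with overlap. In *S. moellendorffii*, feature 271992 (AT5G43330) had 205.6 and 205.2 CPM under hypoxia, against 218 and 210.0 CPM in air.

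Peroxisomal and plastid NAD-MDH were lower under hypoxia in *P. patens* and *E. hyemale*, without passing the test. The peroxisomal Pp3c1_7380 (AT2G22780) had 30.9 and 30.8 CPM under hypoxia, against 53.9 and 47.6 CPM in air, a log2FC of -0.70 with a 95% interval of -0.94 to -0.46. Its FDR of 0.0643 by limma was the smallest of the *P. patens* members, and it was 0.497 without hypoxia replicate 3 and 0.0591 without air replicate 3. The other peroxisomal feature, Pp3c11_3740, overlapped at -0.07. In *E. hyemale* both were lower. Ehym_DN105292_c0_g1 had 247, 250.0 and 252 CPM under hypoxia, against 318, 306 and 272 CPM in air, and Ehym_DN111195_c8_g1 had 143, 159 and 160.1 CPM under hypoxia, against 195, 199.5 and 202 CPM in air. For Ehym_DN111195_c8_g1 the log2FC of -0.37 came with the smallest FDR of the *E. hyemale* members, 0.159 by limma.

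Of the plastid type (AT3G47520), *P. patens* Pp3c14_9020 had 33.99 and 29.6 CPM under hypoxia, against 46.5 and 42.8 CPM in air, with a log2FC of -0.48 and an FDR of 0.172 by limma. Together the 2 plastid features of *P. patens* summed to 72.4 ± 0.6 CPM under hypoxia and 91.2 ± 1.3 CPM in air (SD, n = 2 each). All 4 plastid features of *E. hyemale* were negative, between -0.44 and -0.14, and Ehym_DN109178_c0_g4 had 9.13, 11.5 and 10.7 CPM under hypoxia, against 14.6, 14.7 and 14.2 CPM in air. These 4 carry neighbouring identifiers of 1 assembly cluster and are not independent. The plastid ratio was 1.02 in *M. polymorpha* and 1.01 in *S. moellendorffii*. *P. vittata* had a plastid ratio of 1.16, with both features positive and with overlap of the sums. For the peroxisomal type, the *M. polymorpha* ratio was 1.1, with hypoxia above air in every library. It was 0.954 in *S. moellendorffii* and 0.865 in *P. vittata*, each with overlap. Pp3c14_9020, Ehym_DN111195_c8_g1, Pp3c11_3740, 271992, 233612 and 138697 were named after their values were seen.

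Mitochondrial NAD-MDH, the form that belongs to the cycle itself, was higher in *M. polymorpha* and *P. vittata* and lower in *P. patens* and *E. hyemale* by the sums of its features. The ratios were 1.19 and 1.17 in *M. polymorpha* and *P. vittata*, 0.912 and 0.84 in *P. patens* and *E. hyemale*, and 1.08 in *S. moellendorffii*. *S. moellendorffii* 89860 had 326.5 and 328 CPM under hypoxia, against 322 and 286 CPM in air. No mitochondrial NAD-MDH passed the test.

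**Figure D3:**
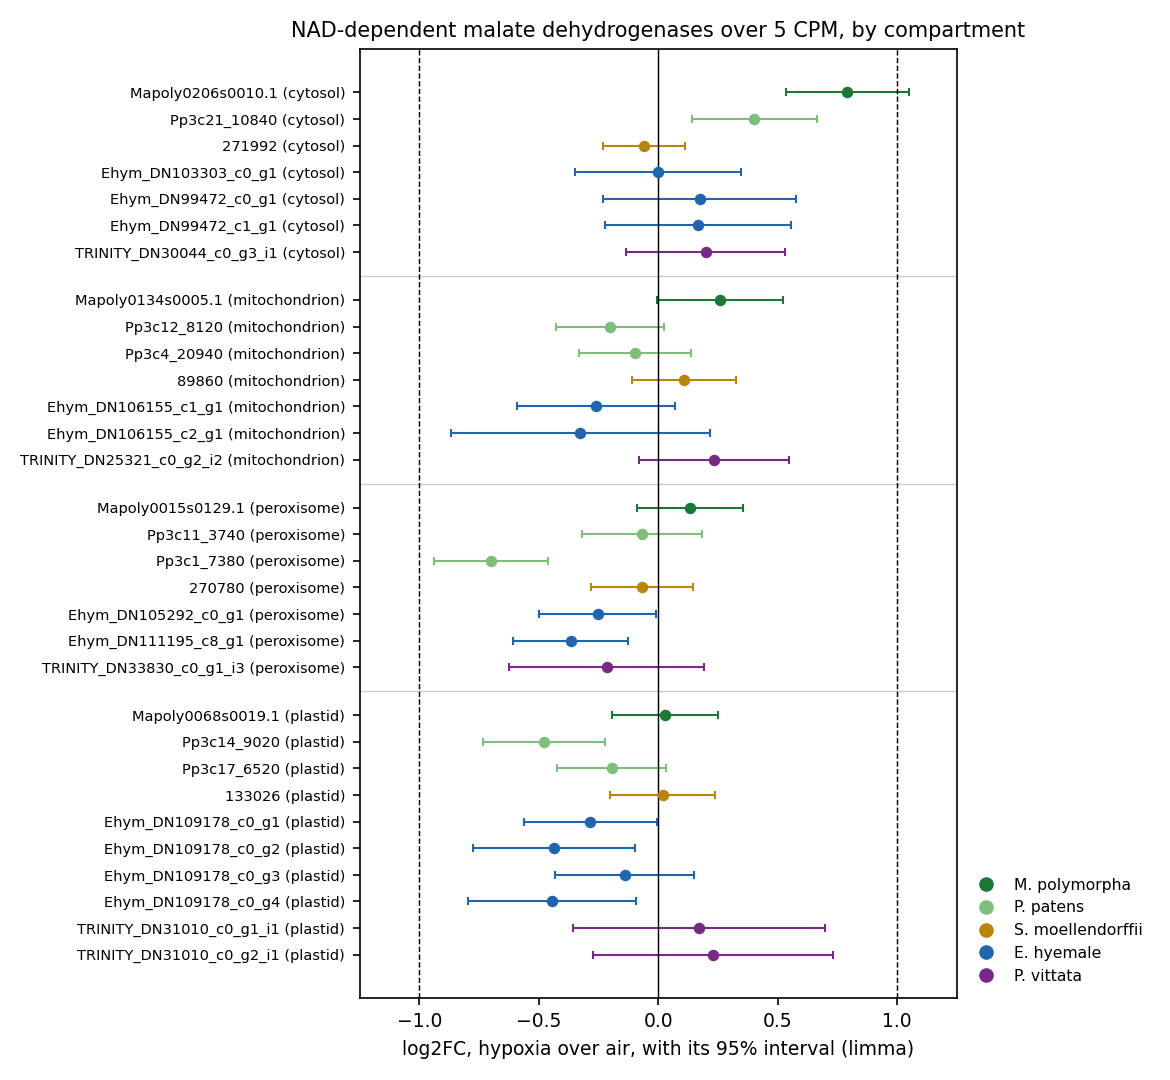
Log2FC of the NAD-dependent malate dehydrogenases over 5 CPM, hypoxia over air, with 95% intervals from limma, grouped by compartment and coloured by species. Dashed lines mark 1 and -1. The transcript TRINITY_DN30044_c0_g3_i2, whose interval of -3.08 to 5.70 exceeds the axis, is not drawn. Cytosolic Mapoly0206s0010.1 lies furthest right at 0.79 and peroxisomal Pp3c1_7380 furthest left at -0.70.

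The plastid NADP-dependent malate dehydrogenase (NADP-MDH), a light-regulated enzyme that exports reducing power as malate, was lower in *P. vittata*, *E. hyemale* and *M. polymorpha* by its sums. In *P. vittata* the Trinity gene TRINITY_DN35311_c1_g3 had 142 and 157 CPM under hypoxia, against 235 and 222 CPM in air, a log2FC of -0.61 with a 95% interval of -0.91 to -0.31 and an FDR of 0.0972 by limma. TRINITY_DN35311_c1_g1, of the same cluster, had 62.5 and 63.4 CPM under hypoxia, against 91.4 and 85.2 CPM in air. Of the 14 transcripts of this step, 11 were negative and 3 positive, and TRINITY_DN35311_c1_g3_i11 had 71.5 and 76.6 CPM under hypoxia, against 117 and 136.5 CPM in air. Its FDR of 0.275 by limma was the smallest of the 91 *P. vittata* members.

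In *E. hyemale* all 4 NADP-MDH features were negative, and Ehym_DN108300_c2_g4 had 126, 202 and 192 CPM under hypoxia, against 222, 222 and 216 CPM in air, with 1 hypoxia library far below the other two. Mapoly0031s0108.1 of *M. polymorpha* had 256 and 267 CPM under hypoxia, against 291 and 295 CPM in air. *P. patens* Pp3c2_2120 went the other way, with 152 and 141 CPM under hypoxia, against 132 and 134 CPM in air, and *S. moellendorffii* 270710 overlapped. Sums of other plastid transcripts were lower under hypoxia without overlap for 4 of 6 markers in *E. hyemale*, 4 of 5 in *S. moellendorffii*, 2 of 5 in *M. polymorpha* and 1 of 6 in *P. vittata*. In *E. hyemale*, the sum of LHCB1, a light-harvesting protein, was 1562 to 1816 CPM under hypoxia and 2181 to 2299 CPM in air. GAPA, a Calvin cycle enzyme, was at 1803 to 1894 CPM under hypoxia and 2421 to 2513 CPM in air, and Rubisco activase at 2401 to 3229 CPM under hypoxia and 3588 to 3760 CPM in air. In *P. patens*, all 5 marker sums with a feature were lower under hypoxia without overlap, including RBCS, the small subunit of Rubisco, at 5796 to 6186 CPM, against 6986 to 7870 CPM in air. In *P. vittata*, GAPA was 1324 to 1726 CPM under hypoxia and 1881 to 1888 CPM in air, while LHCB1 overlapped at 7117 to 9607 CPM under hypoxia and 7968 to 10040 CPM in air. In *M. polymorpha*, LHCA1 was at 1014 to 1021 CPM under hypoxia and 1085 to 1143 CPM in air, and Rubisco activase at 1352 to 1389 CPM under hypoxia and 1437 to 1511 CPM in air. In *S. moellendorffii*, GAPA was at 1289 to 1413 CPM under hypoxia and 1433 to 1668 CPM in air. Their part in the values of the plastid and peroxisomal members was not tested.

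**Figure D4:**
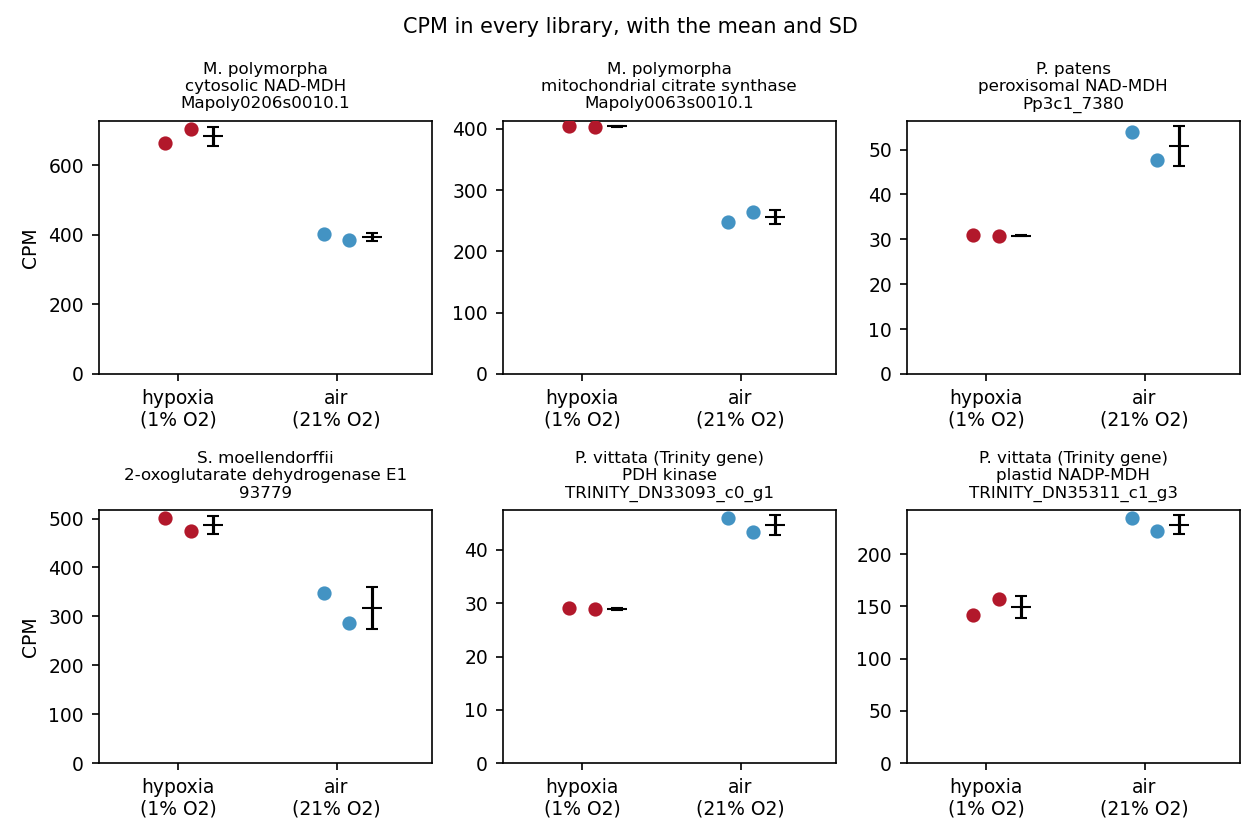
CPM in every library (points) with the mean and SD (bars) of 6 features or Trinity genes, hypoxia at the left and air at the right of each panel, with axes that start at 0. The PDH kinase panel sums the 8 transcripts of TRINITY_DN33093_c0_g1, of which 2 are members. In each panel no hypoxia library overlaps an air library, but the panels were picked by their values, so this follows partly from the choice. Among all features of these species, 20.5 to 30.1% lay above air without overlap and 20.9 to 30.4% below it. The hypoxia values are higher in the *M. polymorpha* and *S. moellendorffii* panels (664 and 703 against 402.5 and 385 CPM for cytosolic NAD-MDH). They are lower in the *P. patens* and *P. vittata* panels.

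The reading of *P. vittata* depends on whether transcripts or genes are counted, since its 91 members belong to 35 Trinity genes. The Trinity genes given by name here were chosen after their values were seen. The sums take in every transcript of a gene, also those that are not members. With transcripts summed, 0 of the 35 were called by limma, against 0.0166% of all 36196 Trinity genes up and 0.00553% down. At an unadjusted p under 0.05, 2 were higher and 5 lower, against 7.94 and 6.26% of all genes. Their log2FC values ran from -0.61 to 0.31, where single transcripts over 5 CPM reached from -0.79 to 1.31. Of the 35 genes, 22 were positive and 13 negative. Both NADP-MDH genes, both PDH kinase genes and 4 of 6 citrate synthase genes were negative. Both fumarase genes were positive, and so were all 4 PDH E1 genes that hold a member, which have alpha subunits as best hits. Of 15 further *P. vittata* PDH E1 features that are not members, 10 were higher and 5 lower. Of the 91 transcripts, 69 matched their best hit at an E-value of 1e-20 or less, and all 60 features of *E. hyemale* did.

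The 18 features of leucine synthesis, isopropylmalate isomerase (AT2G43090) and isopropylmalate dehydrogenase (AT1G80560), share a word with the cycle but not its reactions. Their sums gave ratios of 1.04 in *P. vittata*, 0.997 in *E. hyemale*, 0.963 in *S. moellendorffii*, 0.913 in *P. patens* and 1.13 in *M. polymorpha*. Without them the median log2FC was 0.07 in *P. vittata*, -0.12 in *E. hyemale*, -0.02 in *S. moellendorffii*, -0.07 in *P. patens* and 0.13 in *M. polymorpha*.

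Features of the same pathway with best hits that the words did not take were listed apart. They comprise 157 features with 28 further best hits, among them other PDH E1 subunits, E2, E3, the beta subunit of succinyl-CoA ligase and the subunits of succinate dehydrogenase (SDH), which is also complex II of the respiratory chain. None of them was called in any species, against the same backgrounds as above. At an unadjusted p under 0.05 by limma, 2 of 74 were higher and 4 lower in *P. vittata*, where 6.03 and 4.23% of all features were. The counts were 2 and 1 of 27 in *E. hyemale* (backgrounds 6.71 and 5.99%) and 0 and 1 of 17 in *S. moellendorffii* (10.4 and 5.42%). They were 1 and 2 of 26 in *P. patens* (5.45 and 5.46%), and 5 and 0 of 13 in *M. polymorpha* (15.4 and 15.8%). Their median log2FC was -0.03 in *P. vittata*, 0.05 in *E. hyemale*, 0.09 in *S. moellendorffii*, -0.01 in *P. patens* and 0.19 in *M. polymorpha*. The words were not searched in the descriptions of *P. vittata*, so part of the enzymes of the members stands here for that species. These are 6 NAD-MDH features (2 higher, 4 lower), 4 aconitases (3 higher, 1 lower), 1 citrate synthase (higher), and 1 NAD-dependent and 1 NADP-dependent isocitrate dehydrogenase (both lower). The *P. vittata* sums and counts of these steps leave them out.

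The flavoprotein subunit SDH1, which oxidizes succinate, was higher in *M. polymorpha*, where Mapoly0002s0067.1 had 204 and 223 CPM under hypoxia, against 162 and 171 CPM in air. Its log2FC was 0.36 at an FDR of 0.0475 by limma. In *S. moellendorffii* SDH1 (440964) had 246 and 250.2 CPM under hypoxia, against 238 and 190 CPM in air, with a log2FC of 0.22. SDH1 overlapped in *P. patens*, *E. hyemale* and *P. vittata*, with log2FC values of 0.00 (Pp3c27_4920), -0.06 (Ehym_DN108909_c1_g2) and 0.07 (TRINITY_DN31630_c0_g1_i1). E3, shared by the PDH and 2-oxoglutarate dehydrogenase complexes, gave 2 lower and 1 higher of 3 features in *S. moellendorffii*, between -0.26 and 0.27, and the higher one, the plastid 410895, averaged 2.02 CPM. The mitochondrial 445122 had 466 and 517 CPM under hypoxia, against 614 and 559.5 CPM in air. Mitochondrial E3 was also lower in *P. patens* Pp3c17_14660, with 104 and 110 CPM under hypoxia, against 139 and 121 CPM in air, and in *E. hyemale* Ehym_DN107683_c0_g1, with 115, 108.5 and 107 CPM under hypoxia, against 124, 123 and 139 CPM in air. *M. polymorpha* Mapoly0047s0028.1 had 305.5 and 311.5 CPM under hypoxia, against 288 and 280.3 CPM in air. The feature 410895 was named after its values were seen. FDRs of the mitochondrial E3 features were 0.305 or more by limma.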

How the data were processed

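The mRNA of 22 libraries from 5 species was analysed. The authors trimmed the reads, quantified them with Kallisto, using Trinity assemblies for the horsetail and the fern and published transcriptomes for the rest, removed loci with few reads, applied TMM factors with edgeR and deposited log2 CPM values per library. Other deposited values, in *E. hyemale*, are log2 CPM in which a 0 stands as spreadsheet error text, so these columns are not purely numeric. Versions are not given in the sources used here. Columns with the authors' own fold changes and adjusted p-values were not used.

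In the *E. hyemale* table, identifiers and values are ordered differently. Sorting the identifiers raised the correlation with the authors' mean log2 CPM across 55254 genes to 0.9997, against 0.0103 as deposited. In *S. moellendorffii*, 1 air column carries a number that no air label has and was used as an unnumbered air library.

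Hypoxia was compared with air within each species by limma 3.58.1 (R 4.3.3) on log2(CPM + 1), letting the variance prior depend on mean expression, with Benjamini-Hochberg adjustment over all features. Tables were normalized one by one, so no test was run across species. Between 44.7 and 80.4% of low values were whole reads within 0.1 read, so models for counts were not fitted. Replicates were separate pools of plants. The p-values combine the spread between 2 or 3 of them with the variance prior, which is taken from all features of the table. Tables were handled with pandas 2.3.3 in Python 3.11.15, and figures drawn with matplotlib 3.10.9.

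Members and lists were chosen with earlier results of these data known. Features were named if called, if most abundant in an enzyme step, or if they had the largest absolute log2FC of a step among members over 5 CPM, along with the most abundant SDH1 and E3. Features named otherwise are marked in the text.

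Replicate numbers did not pair the samples: deviations of same-numbered libraries correlated at 0.031 in *M. polymorpha*, 0.0608 in *P. vittata* and -0.276 to -0.0752 in *E. hyemale*.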

Additional observations from a re-analysis of the deposited data

Results flagged for a closer look

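Enzyme steps are given here whose summed CPM differed in direction between species, with every hypoxia library above every air library in 1 species and below it in another. The values are ratios of the hypoxia mean to the air mean, and the differences between species were not tested, since the tables were normalized one by one. With 2 libraries against 2, more than 20% of all features are without overlap in each direction. NADP-MDH was at 0.893 in *M. polymorpha*, 0.832 in *E. hyemale* and 0.671 in *P. vittata*, against 1.07 in *P. patens*. NAD-MDH was at 0.875 in *E. hyemale*, against 1.05 in *P. patens* and 1.32 in *M. polymorpha*. These sums pool compartments. The *P. patens* ratios were 1.32 in the cytosol, but 0.912 in the mitochondrion, 0.803 in the peroxisome and 0.793 in the plastid. Those of *E. hyemale* were 1.08, 0.84, 0.812 and 0.836 in the same order, so the 2 species differed little in direction within a compartment. Citrate synthase was at 1.43 in *M. polymorpha* and 0.897 in *P. vittata*. Its mitochondrial form was above air in both, at 1.58 and 1.05, and its peroxisomal form was at 1.05 with overlap and 0.852. PDH kinase was at 0.729 in *P. vittata*, against 1.12 in *P. patens* and 1.17 in *M. polymorpha*. NAD-dependent isocitrate dehydrogenase was at 1.03 in *M. polymorpha* and 1.18 in *P. vittata*, against 0.972 in *P. patens* and 0.912 in *S. moellendorffii*. Succinyl-CoA ligase was at 1.09 in *M. polymorpha*, against 0.862 in *P. patens* and 0.887 in *S. moellendorffii*. Leucine synthesis was at 1.13 in *M. polymorpha* and 1.04 in *P. vittata*, against 0.913 in *P. patens*.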

How the results depend on the processing

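The number of members called was 0 in each species and direction under the alternatives run, with 1 exception: with no minimum fold change, 2 *M. polymorpha* members were higher, Mapoly0206s0010.1 at a log2FC of 0.79 and Mapoly0063s0010.1 at 0.66. Without the trend of the variance prior, their FDRs by limma were 0.0104 and 0.0154. With libraries rescaled to equal totals, the median log2FC of the members was 0.103 in *M. polymorpha*, -0.0837 in *S. moellendorffii* and 0.0247 in *P. vittata*, and in *P. vittata* it was 0.122 with transcripts summed per Trinity gene. That scaling moved the median of all features by less than 0.1 log2 units. Leaving out 1 library at a time moved the median to between 0.0101 and 0.0625 for *P. vittata*, -0.169 and -0.0804 for *E. hyemale*, -0.0436 and 0.0230 for *S. moellendorffii*, -0.108 and 0.0177 for *P. patens*, and 0.129 and 0.187 for *M. polymorpha*. The lowest *P. vittata* median came without air replicate 1, and the positive medians came without air replicate 2 in *P. patens* and without air replicate 3 in *S. moellendorffii*, and the cause was not tested. With a replicate block, 0 members were called in *P. vittata*, *E. hyemale* and *M. polymorpha*. Their medians of 0.0746, -0.117 and 0.146 could not change with it, since each replicate number occurs once in both conditions there. In *P. patens* and *S. moellendorffii* the block could not be fitted, since fewer than 2 replicate numbers are shared between conditions. With 2 libraries a group, the median standard error of a member's log2FC was 0.220 in *P. vittata*, against 0.0877 to 0.107 in the 3 other species, so changes of the same size are harder to detect there.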
